A study of Mus musculus with 4 samples.

Results

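The 4 galectin genes Lgals2, Lgals3, Lgals4 and Lgals9 were followed through the secretory and absorptive cells of the mouse duodenal crypt, with and without loss of Apc. They are 4 of 31053 genes in the count tables, matched by symbol. They were chosen because the ratio of Lgals3 between Paneth and goblet cells differed with genotype, so for these genes every value of genotype in Paneth and goblet cells is given as a description, with no test. Cells were grouped by the cell type column of the submitters' deposited cell tables, which gives 12 types, and unique molecular identifiers (UMIs, each standing for 1 captured RNA molecule) were summed per type and library. Levels are counts per 1000000 UMIs of that sum (CPM). The types keep the submitters' short names.

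Control mice, labelled WT, carried Atoh1CreER-T2;R26RTom. APC-KO mice are labelled Atoh1Cre;Apcfl/fl;R26RTom, and the series text names the inducible Cre for them too. Both groups therefore carry an Atoh1-driven Cre, which acts in secretory cells, and a Tomato reporter, and both received 2 tamoxifen injections (1 mg/mL) 24 h apart, with harvest of TOM+ sorted crypt cells 12 h later. Each genotype has 2 libraries of 10x 3′ v3.1 single-cell RNA. The labels name no animals, ages or litters, so a p-value here measures only the spread between these libraries, which may be technical.

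The kept cells numbered 4814 and 3821 in WT replicates 1 and 2, and 356 and 6243 in APC-KO replicates 1 and 2. APC-KO replicate 1 stands apart: 5.15% of its UMIs lay in kept cells, against 37.6% to 50.3% in the other libraries, and it held 16 PANETH and 11 ENTERO-PRO cells. Between 1 and 8 cell barcodes were shared by any pair of libraries. Apc itself was at 77.9 to 87.2 CPM in WT and at 88.1 CPM in both APC-KO libraries, and because a 3′ tag need not lie in the deleted part, this does not check the deletion. The labelled types carried their markers: the 7 goblet markers summed to 383619 to 451276 CPM in GOBLET cells, and the 8 Paneth markers to 341062 to 543910.5 CPM in PANETH cells. In ENTERO-PRO the 8 enterocyte markers summed to 10081 and 11224 CPM in WT, against 21354 and 9285 CPM in APC-KO, but the 7 goblet markers summed to more in 3 libraries (28340.1 and 21608 CPM in WT, 39720.1 in APC-KO replicate 2) and to 2699 CPM in APC-KO replicate 1. The 4 stem cell markers summed to 2591 to 4112 CPM in ISC, the 5 tuft markers to 2082 to 3276 in TUFT and the endocrine precursor markers Neurog3 and Neurod1 to 2067 to 2793 in EEC-PRE. In EC the 4 markers of serotonin-making cells summed to 60627 to 81122 CPM, and in NON-EC the 7 hormone genes of other endocrine cells to 25244 to 42713 CPM.

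Galectins are small proteins that bind beta-galactoside sugars on glycoproteins and glycolipids, and they act both inside cells and after leaving the cell by a route that bypasses the usual secretory pathway. Gut epithelium is one of their richest sources. There they crosslink glycans at the cell surface, sort proteins to the apical membrane and meet the mucin glycans that goblet cells secrete. Paneth cells, the defensin-making cells of the crypt base, and goblet cells, the mucus makers, arise from the same secretory progenitors.

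By the GENCODE M21 annotation of GRCm38, Lgals2 lies on the minus strand of chromosome 15 (chr15:78850860-78855529), Lgals3 on the plus strand of chromosome 14 (chr14:47367751-47386160), Lgals4 on the plus strand of chromosome 7 (chr7:28833854-28841708) and Lgals9 on the minus strand of chromosome 11 (chr11:78962974-78984946). The 250 bases before the RefSeq start are shown for Lgals2 and Lgals4, because these shared most of their pattern over the types. Sequences are from RefSeq on GRCm38.p6, 5′ to 3′ along the gene's strand, at chr15:78855530-78855779 (minus) and chr7:28833544-28833793 (plus). Capitals mark letters of the searched motifs on either strand.
Lgals2: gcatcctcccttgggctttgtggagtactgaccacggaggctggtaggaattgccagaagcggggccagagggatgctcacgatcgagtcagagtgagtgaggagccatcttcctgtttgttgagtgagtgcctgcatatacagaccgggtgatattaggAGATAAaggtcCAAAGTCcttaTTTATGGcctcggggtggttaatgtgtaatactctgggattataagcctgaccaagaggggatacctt
Lgals4: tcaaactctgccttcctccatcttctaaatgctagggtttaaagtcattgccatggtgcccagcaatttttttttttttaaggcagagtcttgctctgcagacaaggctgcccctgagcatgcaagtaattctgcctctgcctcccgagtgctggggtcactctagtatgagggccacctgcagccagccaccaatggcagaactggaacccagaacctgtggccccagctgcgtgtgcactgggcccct

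The motifs searched were the HNF4 motif CAAAGTC, the CDX motif TTTATNG, the TCF/LEF motif CTTTGAT, the GATA motif AGATAA, the GC box GGGCGG and the doubled GAAA letters of the interferon-response motif, each on both strands. The Lgals2 window held the HNF4, CDX and GATA letters, starting 79, 68 and 90 bases before the start and found in 3.84%, 9.81% and 9.99% of the 32851 RefSeq promoters of the same length. None of the 6 motifs was found in the Lgals4 window. The Lgals3 window (chr14:47373610-47373859) lies inside the gene as GENCODE M21 places it, since the first GENCODE transcript starts upstream of the RefSeq start. It had 66.0% GC against 50.8% for Lgals2 and 53.6% for Lgals4, and held a GC box (32.7% of promoters) starting 7 bases before the start. The Lgals9 window held the interferon-response letters 55 bases before the start (2.98% of promoters), and the TCF/LEF letters, found in 3.21% of promoters, were in none of the 4. A match is a string of letters only, and Lgals2 and Lgals4, whose levels were alike, shared no matched motif.

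Lgals2 is a galectin with a single sugar-binding domain and is abundant in gut epithelium. Its highest WT mean was in GOBLET cells, and in summed UMIs its lowest level was in PANETH cells in every library. In GOBLET cells it stood at 9420.3 and 8859 CPM in WT replicates 1 and 2, against 7448 and 6441 CPM in APC-KO replicates 1 and 2. In PANETH cells it stood at 449.9 and 316 CPM in WT, against 1089 and 1294 CPM in APC-KO. Both APC-KO libraries were thus below both WT libraries in GOBLET cells and above them in PANETH cells.

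Over the WT libraries the order of Lgals2 ran from GOBLET (mean 9139.9 CPM) through GOBLET-PRE (8184), GP (7319), SEC-PRO (6276) and ENTERO-PRO (5339) to PANETH-PRE (3378), ISC (3209), NON-EC (2114), TUFT (2080.2), EC (1684), EEC-PRE (1183) and PANETH (383). Along the first 5 types no neighbours overlapped in the 2 WT libraries, but only GP and SEC-PRO stayed apart over all 4 libraries, so most steps in the order did not exceed the spread between libraries. Lgals2 in the endocrine types, EEC-PRE, EC and NON-EC, spanned 1127 to 2265 CPM over the 4 libraries. In APC-KO the highest mean was in GP (7129 CPM), above GOBLET-PRE (6992) and GOBLET (6945), but the 2 libraries differed. In APC-KO replicate 1, GOBLET-PRE (7906 CPM) lay above GP (7549 CPM, from 7 cells). In APC-KO replicate 2 it lay below GP (6078 against 6709 CPM).

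Lgals4, which has 2 linked sugar-binding domains and takes part in apical sorting through lipid rafts, had the same types at both ends of its WT order. In GOBLET cells it was at 6336 and 7062 CPM in WT, against 5627 and 5843 CPM in APC-KO. In PANETH cells it was at 367 and 306 CPM in WT, against 796 and 897 CPM in APC-KO. The genotypes again did not overlap in either type, with opposite signs. GOBLET-PRE (5848 and 6523 CPM in WT, against 5473 and 5419 in APC-KO) overlapped GOBLET, and these types lay above GP, ENTERO-PRO and SEC-PRO, with WT means of 5116, 4847 and 4260.4 CPM. TUFT and ISC followed at 2260.2 and 2219.8 CPM and overlapped each other, as did EEC-PRE and PANETH-PRE at 1708 and 1703 CPM, with EC (827) and NON-EC (700.1) next above PANETH (337). In APC-KO, PANETH (mean 846 CPM) was not the lowest type: NON-EC had a mean of 749 CPM, and in APC-KO replicate 1 NON-EC (486) and EC (669.7) both lay below PANETH (796). In SEC-PRO, Lgals4 was lower in both APC-KO libraries (3906 and 4615 CPM in WT, 3538 and 3693 in APC-KO, where the 3538 comes from 5 cells), as were 29.1% of genes with a mean of at least 10 CPM. Lgals6, a close copy of Lgals4 in some mouse strains, was not analysed here, so the Lgals4 counts are uncertain as to its reads.

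Lgals9, also with 2 linked domains and known as a signal to immune cells, varied least between types. Its highest WT mean, 478 CPM in GOBLET-PRE, was 1.57 times that of the median type, against 2.77 times for Lgals2 and 2.99 times for Lgals4. The 8 highest types of Lgals9, from GOBLET-PRE down to PANETH-PRE (229 CPM), each overlapped the next in the WT libraries. The step from PANETH-PRE to NON-EC (127 CPM) was wider than the spread over all 4 libraries. Below it stood EC (105), PANETH (97.0) and EEC-PRE (63.6 CPM), so that here PANETH was not the lowest type.

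Lgals3, which carries a sugar-binding domain on a long flexible tail and is typical of mature absorptive cells and of macrophages, had a different pattern. It was concentrated in GOBLET and ENTERO-PRO cells. In GOBLET cells it was at 162 and 306 CPM in WT, against 73.5 and 196 CPM in APC-KO, and in ENTERO-PRO cells at 194 and 248 CPM in WT, against 478 and 169 CPM in APC-KO. The genotypes overlapped in both. In the highest type its WT mean was 54.2 times that of the median type. ISC came next at 21.2 CPM, and GOBLET-PRE held 12.9 CPM, far under the 234 CPM of GOBLET. The remaining 8 types had WT means of 2.18 to 8.46 CPM, and each overlapped its neighbour.

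**Figure D1:**
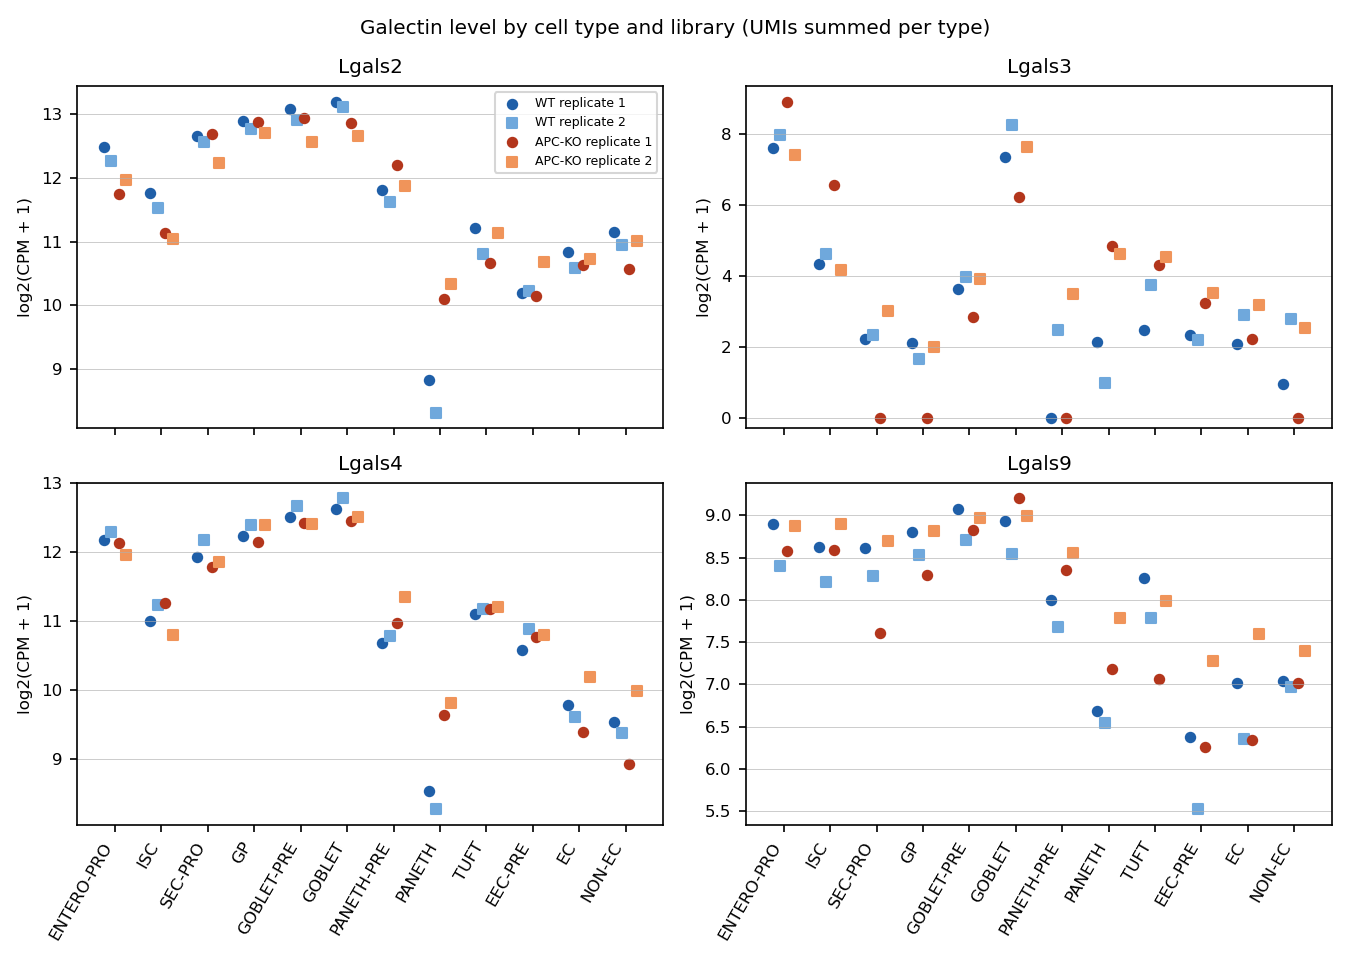
Level of each galectin as log2(CPM + 1) (vertical axis) in the 12 cell types (horizontal axis), with 1 point per library, blue for WT and red or orange for APC-KO. Lgals2, Lgals4 and Lgals9 have their highest WT means in GOBLET or GOBLET-PRE and low values in PANETH, whereas Lgals3 has its highest WT means in GOBLET and ENTERO-PRO.

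Cell counts gave the same picture for Lgals3. To compare cells at 1 depth, each cell was thinned to 2000 UMIs, which left out 161 and 50 shallower WT cells, against 10 and 292 in APC-KO. In ENTERO-PRO, 26.1% and 39.1% of WT cells and 62.5% and 24.7% of APC-KO cells then had an Lgals3 UMI (unthinned 56.9%, 72.3%, 72.7% and 46.2%). The 62.5% rests on 5 of 8 cells, with an exact 95% interval of 24.5% to 91.5%. In GOBLET the shares were 22.1% and 32.2% in WT and 14.8% and 24.3% in APC-KO (unthinned 41.7%, 50.4%, 32.1% and 37.1%). In GOBLET-PRE they were 1.10% to 2.50%.

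Within those types Lgals3 UMIs were unevenly spread over cells. The 17 richest of 163 GOBLET cells of WT replicate 1 held 48.1% of the Lgals3 UMIs of that sum, the 27 richest of 270 in WT replicate 2 held 51.5%, and the 26 richest of 256 in APC-KO replicate 2 held 52.6%. A single cell of WT replicate 2 held 37 of its 433 UMIs. In ENTERO-PRO the 47 richest of 468 cells in APC-KO replicate 2 held 46.8%. For comparison, Lgals2 had a UMI in at least 93.8% of thinned ENTERO-PRO cells and in every thinned GOBLET cell of the 4 libraries. Intervals and shares cover counting error only.

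**Figure D2:**
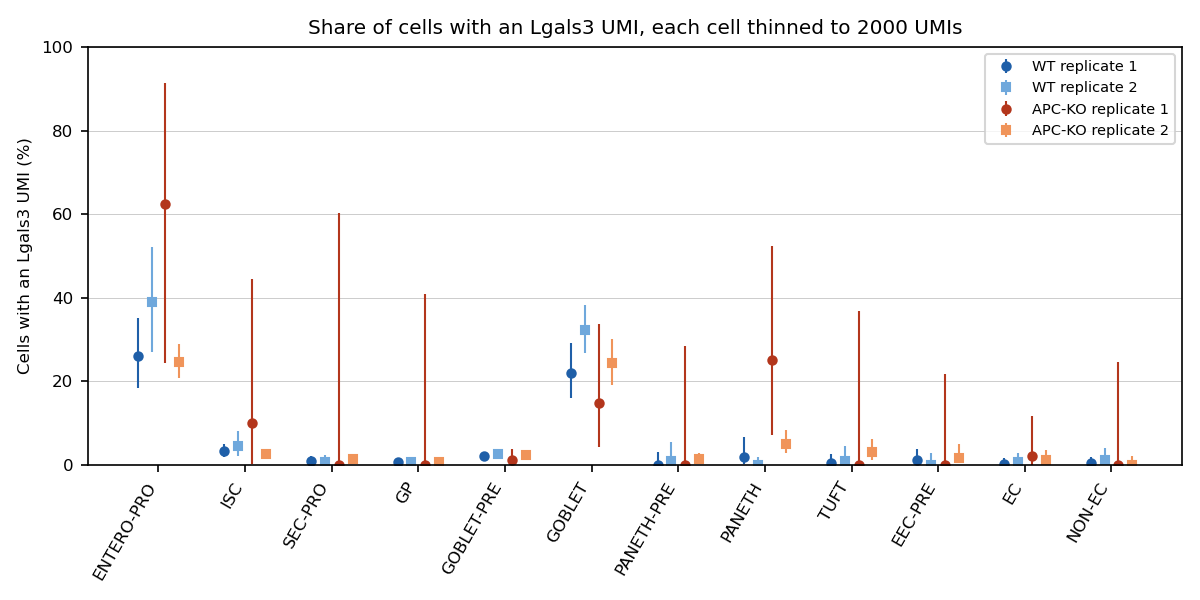
Share of cells with at least 1 Lgals3 UMI (%, vertical axis) in each cell type (horizontal axis) after thinning each cell to 2000 UMIs. Points are libraries and bars are exact 95% binomial intervals, which are wide in APC-KO replicate 1 (5 of 8 ENTERO-PRO cells, 4 of 16 PANETH cells).

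Free RNA also carried these transcripts. In barcodes with 1 to 50 UMIs, which are mostly empty droplets, Lgals2 was at 3041 to 4134 CPM, Lgals4 at 3043 to 3547, Lgals9 at 254 to 395 and Lgals3 at 41.6 to 83.8. A cell with 5% of its UMIs from that source would show Lgals3 at 2.08 and 2.37 CPM in WT replicates 1 and 2, against 4.19 and 2.75 CPM in APC-KO replicates 1 and 2. The Lgals3 level in EC cells (3.19, 6.41, 3.66 and 7.97 CPM) and in WT PANETH cells (3.39 and 0.966 CPM) lay close to those values, near what background can give at this depth. The same 5% would give 152 to 207 CPM of Lgals2 and 152 to 177 CPM of Lgals4, below their lowest values in PANETH cells.

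As a group, the 4 genes took 1.64% and 1.66% of all UMIs of GOBLET cells in WT and 1.37% and 1.30% in APC-KO. In PANETH cells they took 0.0922% and 0.0716% in WT and 0.206% and 0.243% in APC-KO. Across 45 sums of a type and a library with at least 10 cells, log2(CPM + 1) of Lgals2 and Lgals4 correlated with a Pearson r of 0.89, Lgals2 and Lgals9 with 0.82, and Lgals4 and Lgals9 with 0.79. Lgals3 correlated less, with 0.52 for Lgals4, 0.46 for Lgals9 and 0.33 for Lgals2. These sums share libraries and totals, so the values are descriptions.

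By the same measure, among 5993 genes, the nearest to Lgals2 were Fdps and Ebp, enzymes of the isoprenoid and cholesterol pathway, and St14, which encodes the membrane protease matriptase (r = 0.90 for each). The nearest to Lgals4 were Ebp, the microsomal glutathione transferase Mgst2 and the actin-binding Tmsb4x (0.91 for each). The nearest to Lgals3 were Muc3, a membrane mucin (0.84), Tm6sf2, a protein of lipoprotein loading (0.83), and the sulfotransferase Sult1b1 (0.83). The nearest to Lgals9 were the glycosyltransferases B4galnt2 (0.90) and B4galnt1 (0.86), with the serine protease Prss32 (0.86). Lgals2 and Lgals4 thus shared Ebp, while no gene was common to the Lgals3 and Lgals9 sets and any other.

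The contrast that chose these genes is the log2 ratio of the Paneth lineage (PANETH and PANETH-PRE) over the goblet lineage (GOBLET and GOBLET-PRE), with 1 CPM added to each. For Lgals3 it was -3.08 and -4.64 in WT and 0.38 and -1.51 in APC-KO, a difference of means of 3.29. For Lgals2 it was -2.66 and -3.29 in WT and -1.69 and -1.15 in APC-KO, a difference of 1.55. Every ratio was higher in both APC-KO libraries than in both WT libraries for these 2 genes. The same held for Lgals4 (-2.99 and -3.56 against -2.14 and -1.52, a difference of 1.45) and Lgals9 (-1.85 and -1.87 against -1.13 and -0.68, a difference of 0.95). Of genes with a mean of at least 10 CPM, 53.2% of 6117 were higher in both APC-KO libraries in the Paneth lineage. In the goblet lineage 32.3% of 7020 were lower in both. The share of all genes whose ratio was higher in both APC-KO libraries was not computed.

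On the Paneth side this ratio rested on few Lgals3 molecules. PANETH cells held 5 and 2 Lgals3 UMIs in WT and 5 and 43 in APC-KO, or 3.39 and 0.966 CPM against 27.6 and 23.3 CPM. The exact 95% counting intervals were 1.10 to 7.91 and 0.117 to 3.49 CPM in WT, against 8.97 to 64.5 and 16.9 to 31.4 CPM in APC-KO, and they cover counting error only. In PANETH-PRE cells the counts were 0 and 2 in WT and 0 and 28 in APC-KO. A count of 0 allows up to 5.99 CPM in WT replicate 1 and 34.4 CPM in APC-KO replicate 1 (upper 95% bounds). The interval of APC-KO replicate 2 (6.84 to 14.9 CPM) lay above that of WT replicate 1. It overlapped those of WT replicate 2 (0.554 to 16.5 CPM) and APC-KO replicate 1. These counts do not tell whether Lgals3 differed with genotype in PANETH-PRE.

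By cells, after thinning, 2 of 106 (1.89%) and 0 of 200 (upper 95% bound 1.83%) PANETH cells had an Lgals3 UMI in WT, and 4 of 16 and 14 of 274 (5.11%) in APC-KO (unthinned 4.72%, 1.00%, 31.2% and 10.6%). In EC cells, thinned alike, the shares were 0.283%, 0.775%, 2.22% and 1.20% (unthinned 1.03%, 1.48%, 2.22% and 1.93%). The interval of 5.11% in APC-KO replicate 2 (2.82% to 8.42%) overlaps that of EC cells there (0.249% to 3.48%). It also overlaps that of PANETH cells in WT replicate 1 (0.229% to 6.65%), but lies above that in WT replicate 2. The interval in APC-KO replicate 1 (7.27% to 52.4%, 16 cells) lies above both WT PANETH intervals. These intervals cover counting error only. No PANETH cell held more than 1 Lgals3 UMI except in APC-KO replicate 2, where the most was 5.

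Each lineage joins a type with its PRE type, in mixes that differed between libraries: PANETH to PANETH-PRE cells numbered 106 to 122 and 200 to 98 in WT and 16 to 11 and 274 to 602 in APC-KO. In PANETH against GOBLET cells alone, the differences were 2.05 for Lgals2, 4.05 for Lgals3, 1.55 for Lgals4 and 0.51 for Lgals9. In PANETH-PRE against GOBLET-PRE cells alone they were 0.56, 0.93, 0.61 and 0.61. The 0.93 of Lgals3 rests on 0, 2, 0 and 28 PANETH-PRE UMIs and its libraries overlap between genotypes (-3.62 and -1.49 in WT, -2.84 and -0.40 in APC-KO).

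**Figure D3:**
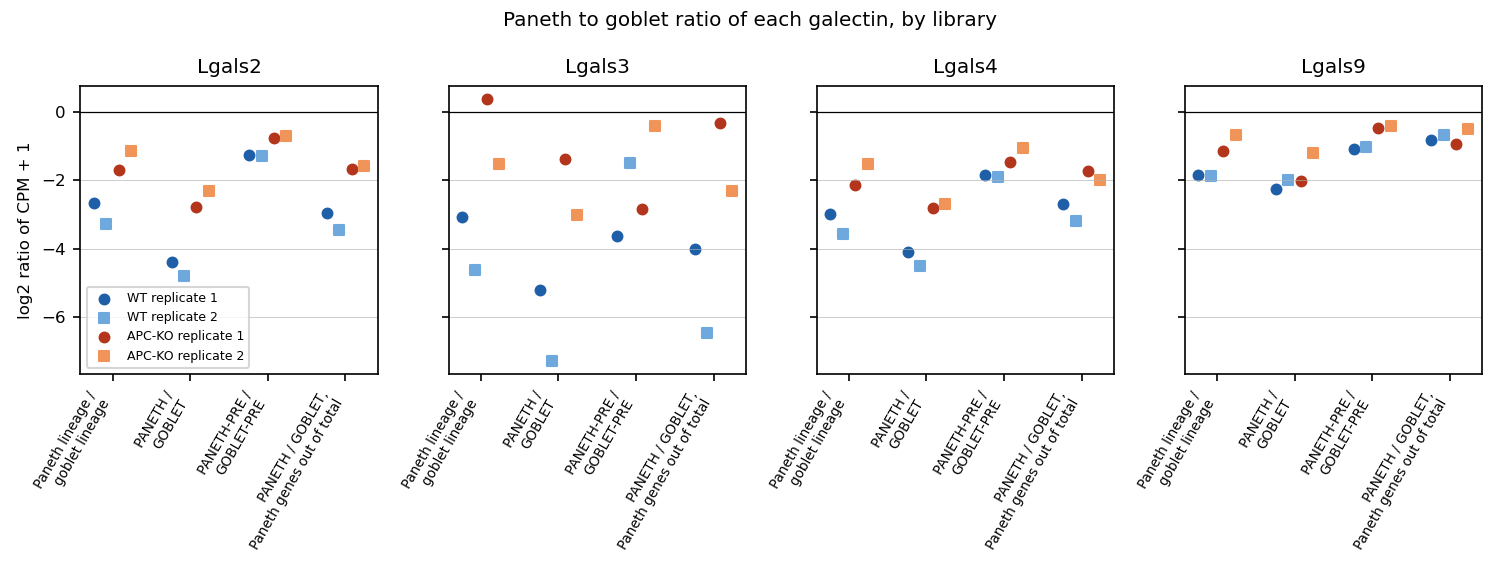
Log2 ratio of each galectin between Paneth and goblet cells, with 1 CPM added (vertical axis), for 4 definitions of the ratio (horizontal axis) and 1 point per library. Both APC-KO libraries lie above both WT libraries for the 2 lineages (differences of 1.55, 3.29, 1.45 and 0.95), and for Lgals9 the difference is 0.03 in the last definition.

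Within PANETH cells, all 4 genes were higher in both APC-KO libraries than in both WT libraries, as were 50.4% of 5232 genes with a mean of at least 10 CPM. Within PANETH-PRE cells, Lgals2, Lgals4 and Lgals9 were higher, beside 18.0% of 7220 genes. Lgals2 was at 3610.0 and 3146 CPM in WT, against 4711 and 3764 in APC-KO. Lgals4 was at 1643 and 1764 CPM against 2006 and 2615, and Lgals9 at 255 and 204 against 326 and 374. Lgals3 there had a mean of 3.72 CPM over the 4 libraries, under the 10 CPM needed. In GOBLET cells Lgals2 and Lgals4 were lower in both APC-KO libraries, beside 14.1% of genes, whereas Lgals9 was higher (486 and 372 CPM in WT, 588 and 507 in APC-KO), beside 29.4% of genes. In GOBLET-PRE cells Lgals4 was lower, beside 33.6% of genes, and Lgals2 overlapped (8655 and 7714 CPM against 7906 and 6078). The choice of genes used these contrasts, so nothing is read from these counts.

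The total of UMIs in PANETH cells shifted with genotype. The 70 Paneth genes left out as an added alternative (defensins and the Paneth markers) held 63.1% and 60.8% of PANETH UMIs in WT and 53.3% and 39.7% in APC-KO. With CPM computed outside those genes, Lgals2 was at 1219 and 807 in WT and at 2332 and 2146 in APC-KO, and Lgals4 at 995 and 781 against 1705 and 1488. Lgals3 was at 9.18 and 2.46 against 59.2 and 38.7, and Lgals9 at 275 and 235 against 308 and 363. In these levels both APC-KO libraries were above both WT libraries for all 4. The share of all genes that did so on this total was not computed, so nothing is read from it. On the full total it was 50.4%. The PANETH to GOBLET differences with the 70 Paneth genes left out were 1.57 for Lgals2, 3.93 for Lgals3, 1.08 for Lgals4 and 0.03 for Lgals9. The Lgals9 ratios overlapped (-0.82 and -0.67 in WT, -0.93 and -0.49 in APC-KO).

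Markers of other cells moved in the same PANETH sums. The 8 enterocyte markers summed to 176 and 159 CPM in WT, against 1392 and 444 CPM in APC-KO, with all 8 detected except Sis at 0 in APC-KO replicate 1. The 7 goblet markers, all detected, summed to 30173 and 18873 CPM in WT, against 30838 and 76984 CPM in APC-KO. Spink4 alone gave 22851 and 12749 CPM in WT, against 16399.9 and 46113 in APC-KO. It was higher in PANETH-PRE than in GOBLET cells in every library. Muc2, Tff3, Fcgbp, Zg16 and Agr2 were each higher in both APC-KO libraries, as were 50.4% of genes, and Clca1 overlapped. Tff3 was at 3168 and 1929 CPM in WT, against 6973 and 11257. The part of the enterocyte and goblet markers in the galectin values was not tested. The macrophage markers Csf1r, Adgre1, C1qa and C1qb were at 0 in PANETH cells of all 4 libraries, and the 6 macrophage markers summed to 2.71 to 5.53 CPM. PANETH cells also differed in depth and mitochondrial share: the median UMIs per cell were 12644 and 10372 in WT and 3552 and 5954 in APC-KO, and the median mitochondrial share was 1.04% and 1.07% in WT and 4.57% and 2.25% in APC-KO. Their part was not tested either. The cycling markers Mki67 and Top2a summed to 25.1 and 14.5 CPM in WT, against 133 and 106 CPM in APC-KO.

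**Figure D4:**
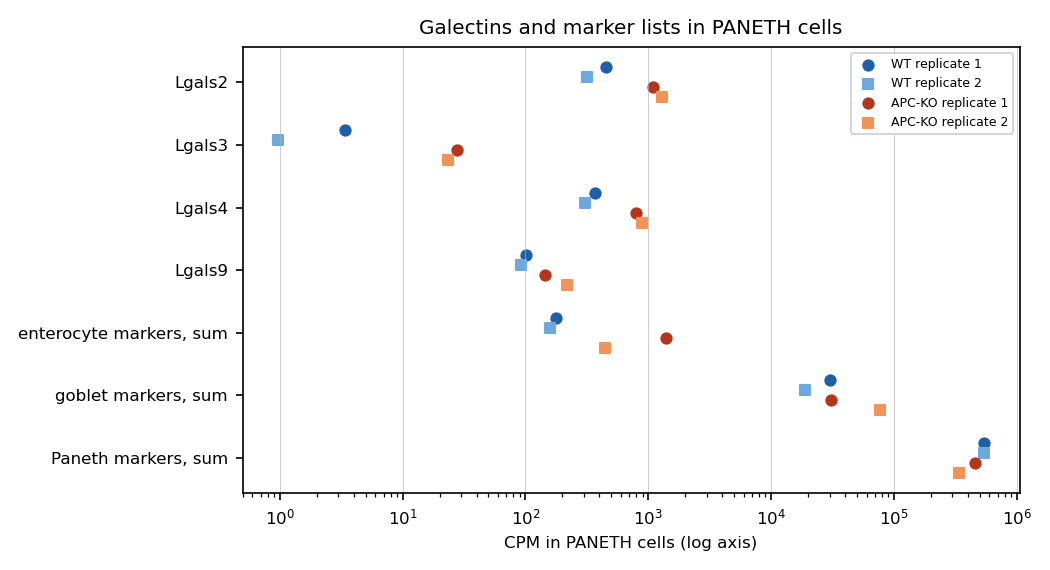
CPM in PANETH cells on a log axis (horizontal) for the 4 galectins and for the summed enterocyte, goblet and Paneth markers (vertical), with 1 point per library. Galectins and enterocyte markers are higher in both APC-KO libraries (enterocyte sum 1392 and 444 CPM against 176 and 159), and the Paneth sum is lower.

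Outside the Paneth and goblet names, the choice of genes used no values, so genotype was tested there. The test was edgeR's quasi-likelihood test on summed UMIs with Benjamini-Hochberg adjustment over all genes, in each type with at least 10 cells in every library. All 4 galectins were tested in ENTERO-PRO, ISC and OTHER, the sum of the 8 types, and 3 in EC, NON-EC and EEC-PRE, where Lgals3 did not pass the filter on low counts. No galectin tested passed an adjusted p of 0.05. Among all genes tested, 0% passed in EC (0 of 8690, with 729 at an unadjusted p under 0.05 and 13 by DESeq2), 0.113% in NON-EC (9 of 7959), 0.654% in EEC-PRE (43 of 6573), 0.0788% in ENTERO-PRO (5 of 6348), 3.57% in ISC (350 of 9792) and 0% in OTHER (0 of 12860, with 740 at an unadjusted p under 0.05 and 20 by DESeq2). DESeq2, run on the same genes, called no galectin, and of those run it gave no adjusted p for Lgals3 in ISC and Lgals9 in EEC-PRE. Of the 4 galectins, only Lgals9 in EEC-PRE and Lgals3 in OTHER stood at an unadjusted p under 0.05 by edgeR.

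In ENTERO-PRO, where the marker sums given above also differed between libraries, Lgals2 was at 5770.0 and 4908 CPM in WT, against 3430.1 and 4019.9 CPM in APC-KO, and Lgals4 was also lower in both APC-KO libraries (4650.5 and 5044 against 4484 and 3992). Of genes with at least 10 CPM, 18.8% were lower in this way. The edgeR fold change of Lgals2 was -0.48 on the log2 scale (SE 0.30, adjusted p = 0.755) and that of Lgals4 was -0.16 (SE 0.29, adjusted p = 0.936). In ISC, Lgals2 was at 3470.4 and 2948 CPM in WT, against 2243 and 2095 CPM in APC-KO, lower in both APC-KO libraries as were 26.6% of genes, with an edgeR log2 fold change of -0.55 (SE 0.29, adjusted p = 0.432). Lgals3 gave 0.29 in ENTERO-PRO (SE 0.40, adjusted p = 0.894 by edgeR) and -0.06 in ISC (SE 0.30, adjusted p = 0.976 by edgeR), where APC-KO replicate 1 was at 92.4 CPM from 7 UMIs and the other libraries at 16.9 to 23.4 CPM.

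Lgals9 had its largest fold change of the 5 single types in EEC-PRE. It was at 82.1 and 45.0 CPM in WT, against 75.7 and 154 CPM in APC-KO, where the first APC-KO value rests on 9 UMIs, so the genotypes overlapped. The edgeR log2 fold change was 1.18 (SE 0.31, adjusted p = 0.0878). Without APC-KO replicate 1 it was 1.37, with 1 APC-KO library left. With no filter on low counts it was 1.11 (adjusted p = 0.0252 by edgeR), where 98 of 13946 genes passed, so the filter decides this call. Leaving out other libraries gave 0.37 to 1.66. The 7 goblet markers summed in EEC-PRE to 12244 and 7508 CPM in WT, against 12055 and 26086 CPM in APC-KO, and in EC to 7824 and 5559 CPM in WT, against 4315 and 15209 CPM in APC-KO. Their part was not tested. In EC the fold change of Lgals9 was 0.57 (SE 0.33, adjusted p = 0.678 by edgeR) and without APC-KO replicate 1 it was 0.89.

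In OTHER the log2 fold change of Lgals3 was 1.41 (SE 0.27, adjusted p = 0.853 by edgeR, unadjusted 0.00316). ENTERO-PRO cells supplied 59.3% and 62.6% of these Lgals3 UMIs in WT and 77.3% and 71.4% in APC-KO, while holding 5.02% and 4.56% of all OTHER UMIs in WT and 9.67% and 14.6% in APC-KO. With each of the 5 tested types weighted equally the Lgals3 difference was 0.40 on the log2 scale (adjusted p = 0.728 by limma), where the median of all genes was -0.22. Within ENTERO-PRO it was 0.29, and thinned to 2000 UMIs it was -0.20. Lgals3 passed the threshold in OTHER with no filter on low counts (1.39, adjusted p = 0.0486 by edgeR), where 41 of 19042 genes passed. Without APC-KO replicate 1 the Lgals3 fold change was 1.14, and without APC-KO replicate 2 it was 1.74. Without APC-KO replicate 2, that of Lgals2 was -1.10 and that of Lgals9 was -0.96. Each of these fits leaves 1 APC-KO library.

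**Figure D5:**
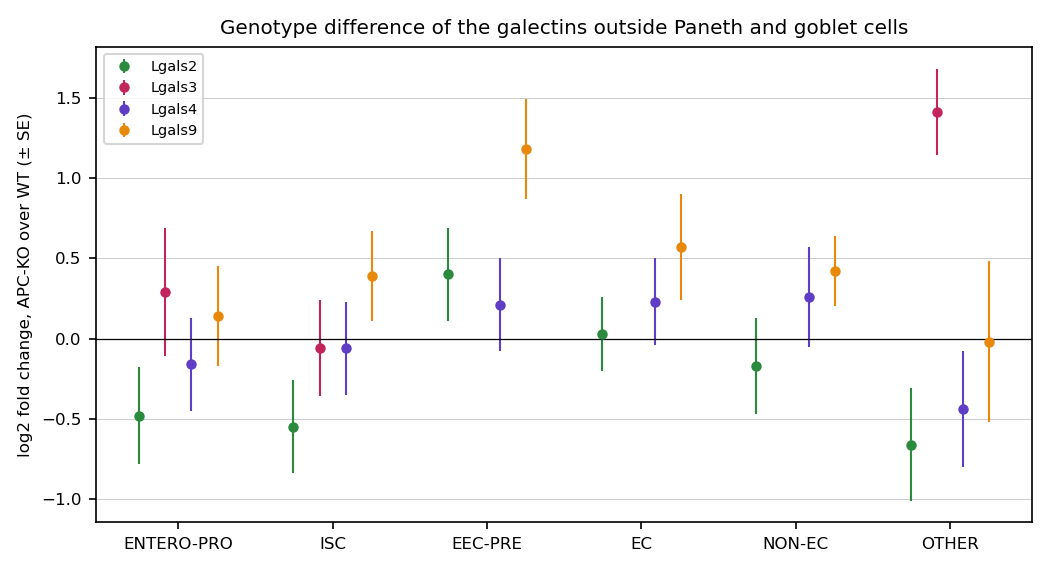
EdgeR log2 fold change of APC-KO over WT (vertical axis, bars are ± SE) for each galectin in the 5 tested types and in OTHER, their sum with SEC-PRO, GP and TUFT (horizontal axis). No point passed the adjusted threshold, and Lgals3 has no point in EEC-PRE, EC and NON-EC because it was under the filter on low counts.

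The other galectin genes had few UMIs. Lgals8, with 2 linked domains and known to sense damaged endosomes, had means over the 4 libraries of 11.6 CPM in PANETH up to 62.3 CPM in TUFT. In EEC-PRE its edgeR log2 fold change was 1.02 (SE 0.35, unadjusted p = 0.00772, adjusted p = 0.287), beside the 1.18 of Lgals9 there. Lgalsl, a galectin-like gene, reached 42.8 CPM in ENTERO-PRO, and Lgals12 reached 11.1 CPM in ISC. Lgals1, Lgals7 and Grifin had means of at most 2.35, 0.883 and 0.579 CPM in any type. Lgals3bp, a secreted glycoprotein that galectins bind, was highest in NON-EC, at 257 ± 10.1 CPM in WT, against 291 ± 12.5 CPM in APC-KO (SD, n = 2 each). Both APC-KO libraries were higher there, as were 14.9% of genes with a mean of at least 10 CPM. The edgeR log2 fold change of Lgals3bp was 0.23 in NON-EC (SE 0.21, adjusted p = 0.817). In EC it was 0.49 (SE 0.19, unadjusted p = 0.0306, adjusted p = 0.529 by edgeR).

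Of the 8 other genes of the galectin list, 2 to 5 were tested in each of the 6 tests and 0 passed by edgeR, nor did any of the 20 glycoproteins known to bind galectins (14 to 20 of them tested). Of 29 enzymes that branch N-glycans or build lactosamine (15 to 26 tested), 1 passed: Gcnt3, which makes branched mucin-type glycans, was at 25.7 and 22.7 CPM in WT, against 13.2 and 10.0 CPM in APC-KO ISC cells, and fell by 1.22 on the log2 scale (SE 0.32, adjusted p = 0.00830 by edgeR). The 13.2 CPM of APC-KO replicate 1 is 1 UMI. Gcnt3 is 1 of 20 enzymes tested in ISC, where 3.57% of all genes passed. In ISC the median fold change over the 20 enzymes tested was -0.16, against -0.01 over all genes tested. In OTHER it was -0.14 over 26 enzymes and 0.28 over the 20 glycoproteins, against 0.02 over all genes. Within the single types the glycoprotein median ran from -0.05 in ISC to 0.11 in EC, against -0.01 to 0.02 over all genes. The mix of types in OTHER differed between libraries, and its part in the 0.28 was not tested.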

How the data were processed

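Counts were deposited by the authors as raw UMI count matrices, with genes in rows and barcodes in columns, and cell tables that give, per the file headers, each cell's UMI count, gene count, percent of mitochondrial UMIs and cell type. The submitters' processing notes name Cell Ranger 3.0.2, STAR and mm10. The deposited percent of mitochondrial UMIs was at most 7.00% and gene numbers ran from 901 to 2999 in the kept cells, and no doublet caller was run. How the authors treated doublets is not given in the sources used here. The 4 genes and the lists were chosen with earlier results of these data known. UMIs of the listed cells were summed per type and library and tested with edgeR 4.0.16 (TMM, filterByExpr), in R 4.3.3, for the 5 types with at least 10 cells in each library and their sum with 3 other types. DESeq2 1.42.0 and limma 3.58.1 served as alternatives. Single-type levels, ratios and shares are descriptions, with 1 CPM added for log values. Near-empty barcodes held 1 to 50 UMIs. The named genes were the 4 galectins, the other galectins, up to 3 called list genes per direction, and the 3 genes most like each member with a mean of at least 20 CPM. On simulated counts with changes of 2 on the log2 scale, 154 of 196 genes were called in OTHER, 156 of 180 in NON-EC and 193 of 197 in ISC. The largest galectin fold change in the main fits was 1.41 (Lgals3 in OTHER). Changes of that size or smaller were not simulated. Gene identifiers matched GENCODE M21 for 99.6% of genes.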

Additional observations from a re-analysis of the deposited data

Results flagged for a closer look

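Lgals2 and Lgals4 stood lower in both APC-KO libraries than in both WT libraries in some types and higher in others, by log2(CPM + 1), mean of APC-KO minus mean of WT. For Lgals2 the differences were -0.52 in ENTERO-PRO, -0.56 in ISC and -0.40 in GOBLET, against 0.32 in PANETH-PRE and 1.65 in PANETH. For Lgals4 they were -0.20 in ENTERO-PRO, -0.23 in SEC-PRO, -0.18 in GOBLET-PRE and -0.22 in GOBLET, against 0.43 in PANETH-PRE and 1.33 in PANETH. Of all genes with a mean of at least 10 CPM, the share lower in both APC-KO libraries was 18.8% in ENTERO-PRO, 26.6% in ISC, 29.1% in SEC-PRO, 33.6% in GOBLET-PRE and 14.1% in GOBLET, and the share higher was 18.0% in PANETH-PRE and 50.4% in PANETH. The difference between types was not tested. The genes were chosen on the Paneth to goblet contrast, and APC-KO replicate 1 has 5 SEC-PRO and 11 ENTERO-PRO cells.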

How the results depend on the processing

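Few cells in APC-KO replicate 1 and few Lgals3 UMIs outside GOBLET and ENTERO-PRO cells limit these values. Of the member fold changes under an alternative, 207 kept their direction and side of the threshold, 24 changed sign and 8 passed it, and none of the cell type orders rests on a test. The cause of the changes below was not tested.

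Leaving out each library in turn, the Paneth to goblet difference ran from 1.24 to 1.87 for Lgals2, 2.34 to 4.24 for Lgals3, 1.13 to 1.76 for Lgals4 and 0.73 to 1.17 for Lgals9. PANETH-PRE against GOBLET-PRE alone gave 0.56, 0.93, 0.61 and 0.61. PANETH against GOBLET alone gave 2.05 for Lgals2 and 0.51 for Lgals9. With Paneth genes left out of the total (chosen after seeing the data) it was 1.02 for Lgals2, 0.91 for Lgals4 and 0.42 for Lgals9, and 0.03 for Lgals9 in PANETH against GOBLET. TMM factors gave 0.92, 0.81 and 0.32 for Lgals2, Lgals4 and Lgals9, and the edgeR interaction with the library as a block gave 0.92, 0.82 and 0.32. For Lgals3, subtracting free RNA gave 4.55 and a pseudocount of 10 CPM gave 1.69. The ratio of the highest to the median type was 58.6 for Lgals3 and 3.06 for Lgals4 on thinned cells, and 51.1 and 3.02 by the mean per cell. On thinned cells and by the per-cell mean, ENTERO-PRO, not GOBLET, was highest for Lgals3 in WT. Thinning also changed the PANETH levels of APC-KO replicate 1 (16 cells). Lgals2 rose from 1089 to 2719 CPM and Lgals3 from 27.6 to 125. Lgals4 rose from 796 to 2219 CPM and Lgals9 from 144 to 406.

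When an APC-KO library was left out, galectins passed the threshold in EC, EEC-PRE and OTHER, as did many other genes. With no filter on low counts, 1 galectin was called in EEC-PRE, where 98 of 13946 genes passed, and 1 in OTHER, where 41 of 19042 passed. Where 1 library of a genotype remained, it was assumed to vary like the other genotype. The log2 fold change then ran from -0.13 to 0.20 for Lgals2 in EC, -0.51 to 0.06 for Lgals2 in NON-EC, -0.34 to 1.11 for Lgals3 in ENTERO-PRO, -0.22 to 2.12 for Lgals3 in ISC, -0.23 to 0.54 for Lgals4 in EC, -0.24 to 0.11 for Lgals4 in ISC, -0.56 to 0.63 for Lgals4 in NON-EC, -0.33 to 0.94 for Lgals9 in EC, -0.19 to 0.40 for Lgals9 in ENTERO-PRO, -0.02 to 0.49 for Lgals9 in NON-EC and -0.96 to 0.51 for Lgals9 in OTHER. Other sign changes were -0.01 (no filter) and -0.05 (thinned) for Lgals2 in EC, -0.20 (thinned) for Lgals3 in ENTERO-PRO, 0.97 (DESeq2) for Lgals3 in ISC, and 0.06 (thinned) and 0.34 (equal mix, where all genes had a median of -0.22) for Lgals9 in OTHER.

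The replicate numbers are only names. Deviations of same-numbered libraries correlated at -0.14 to 0.02. With the replicate block, 0 of the 4 galectins were called, and all genes called were 0 in EC, 3 in NON-EC, 36 in EEC-PRE, 3 in ENTERO-PRO, 76 in ISC and 0 in OTHER. Lgals3 in ISC changed sign, to 0.31. With the numbers crossed in OTHER (added after seeing the data), 0 genes were called. Over all alternatives, genes called ran from 0 to 405 in EC, 1 to 344 in NON-EC, 0 to 285 in EEC-PRE, 2 to 392 in ENTERO-PRO, 16 to 786 in ISC and 0 to 1755 in OTHER.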
